A study of Mus musculus with 18 samples.

Results

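Besides leptin, fat cells secrete several other proteins into the blood, and 5 of them are described here at the transcript level in epididymal white adipose tissue (eWAT) of male mice: adiponectin (Adipoq), resistin (Retn), adipsin or complement factor D (Cfd), retinol-binding protein 4 (Rbp4) and nicotinamide phosphoribosyltransferase, also called visfatin (Nampt). They were chosen by name, with earlier results of these data known, and all 5 were found among the 16452 genes of the count table by matching gene identifiers to symbols. The study sequenced RNA of whole eWAT from Fm males, the label for mice whose sires derive from zygotes injected with the microRNA let-7d, the microRNA let-7e or a negative control. Its title asks about let-7, paternal mitochondria and a metabolic decline passed between generations. The libraries analysed were 6 of let-7d, 6 of let-7e and 5 of control mice, and control replicate 5 is not analysed here. All groups shared the C57BL/6 strain, a genotype labelled WT, a treatment label that begins with IVF, a chow diet up to week 6 and, up to week 15, the diet that the labels call LFD. The age label says 24 weeks, so the age stays unclear. The microRNA was given to the zygote, and no value here measures it in the fat. The labels do not say whether mice share a sire or a litter, so p-values measure the spread between these libraries.

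Adipokines act at a distance. Adiponectin circulates as trimers and larger multimers, acts through the receptors Adipor1 and Adipor2 and favours fatty acid oxidation and insulin sensitivity, and its gene is a target of the fat cell regulator Pparg. Resistin is in mice a product of fat cells that lowers the liver's response to insulin. Adipsin is the serine protease that cleaves factor B and so starts the alternative pathway of complement. Rbp4 carries retinol in plasma, where it travels bound to transthyretin, and it is made by liver as well as fat. Nampt catalyses the rate-limiting step of the salvage of nicotinamide to NAD, inside cells and as a secreted enzyme, and is expressed in many cell types.

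The mature sequences of let-7d and let-7e show where these 2 microRNAs differ. They share the seed, a stretch that pairs with target messages. That the injected molecules had these sequences is taken from the names of the microRNAs. Their mature forms, from RefSeq on GRCm38.p6, are given with the seed, bases 2 to 8 from the 5′ end, in capitals.
mmu-let-7d-5p: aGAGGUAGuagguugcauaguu
mmu-let-7e-5p: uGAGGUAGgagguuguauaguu
Both seeds read GAGGUAG, and the 22-base strands differ at 3 positions outside it, A1U, U9G and C16U (the base of let-7d, the position from the 5′ end, the base of let-7e). The let-7d sequence lies on the minus strand of chromosome 13 (48536078 to 48536099) and that of let-7e on the plus strand of chromosome 17 (17830366 to 17830387). The 7-base match to this seed, CTACCTC, was absent from the annotated 3′ untranslated regions of all 5 adipokine transcripts, whereas 9.3% of 14218 genes held it. A shorter match to seed bases 2 to 7, TACCTC, occurred in Nampt alone, at base 1585 of a 3′ untranslated region of 2816 bases, and 24.0% of genes held such a match.
Nampt, chromosome 12, match in capitals: attttacagagTACCTCttgttctttc
The 3′ untranslated regions searched had 434 bases in Adipoq, 710 in Retn, 69 in Cfd and 242 in Rbp4. No match says only that these letters are not in those regions.

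The 5 transcripts were abundant, and the order of their levels per kilobase was the same in 17 of 17 libraries. Levels are CPM, which are counts scaled to a library's total, with TMM scaling of those totals, from totals of 12717365 to 28972306 counts, and fewer fat cells and less RNA per fat cell cannot be told apart in such bulk samples. Per kilobase of exon, Cfd had a median of 5252 CPM and ranked between first and 8th of all genes. Adipoq followed with 2287 CPM per kilobase and ranks of 9 to 20, then Retn with 1012 CPM per kilobase and ranks of 17 to 39. Rbp4 had 621 CPM per kilobase and ranks of 32 to 75. Nampt was far lower, with 25.9 CPM per kilobase and ranks of 1337 to 2381. Neighbours in this order did not change places in any library. Cfd alone took 0.262% to 1.41% of a library's TMM-scaled total. The lowest count behind any value was 1514 reads, for Nampt, so counting error is small beside the spread between libraries.

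The tissue label was borne out by fat cell genes in every library, but libraries also held transcripts of other tissues, and 4 of them stood apart in genes of epithelium or of the neighbouring organs. The 26 other fat cell genes listed, such as Fabp4 and Plin1, summed to 50532 to 103200 CPM in let-7d libraries, 85595 to 106460 CPM in let-7e libraries and 58225 to 107180 CPM in controls. Epithelial genes (11 measured) summed to 794 CPM in let-7d 1, 353 CPM in let-7d 5 and 442 CPM in control 3. Smooth muscle and vas deferens genes summed to 28679 CPM in control 3, and epididymis and testis genes to 3434 CPM in control 3 and 1367 CPM in control 6. Liver genes (12 measured) were spread over other libraries too, with sums of 394 CPM in let-7d 3 and 319 CPM in let-7e 4. Values without the 4 libraries let-7d 1, let-7d 5, control 3 and control 6 are given where a result rests on them. Library identifiers also split into an early series (the first 2 libraries of let-7d and of let-7e) and a late one of 13 libraries with every control, so that the fits carry the series as a term.

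No adipokine transcript differed between the groups by edgeR's quasi-likelihood test with Benjamini-Hochberg adjustment over all genes. Of the 5, 0 passed an adjusted p of 0.05 with let-7d against control, with let-7e against control or with let-7e against let-7d, and the share of all genes called was 0% in each. At an unadjusted p under 0.05 the share of all genes was 10.2% for let-7d against control, 10.5% for let-7e against control and 6.67% for let-7e against let-7d, and of the 15 tests of these 5 transcripts only Adipoq with let-7e against let-7d was under it. DESeq2 called 0.0632%, 0.0947% and 0.115% of the genes it tested in these comparisons, and none of the 5 adipokines. No adipokine had groups that did not overlap in CPM, as 0.517% of genes did with let-7d against control, 0.632% with let-7e against control and 0.237% with let-7e against let-7d.

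**Figure D1:**
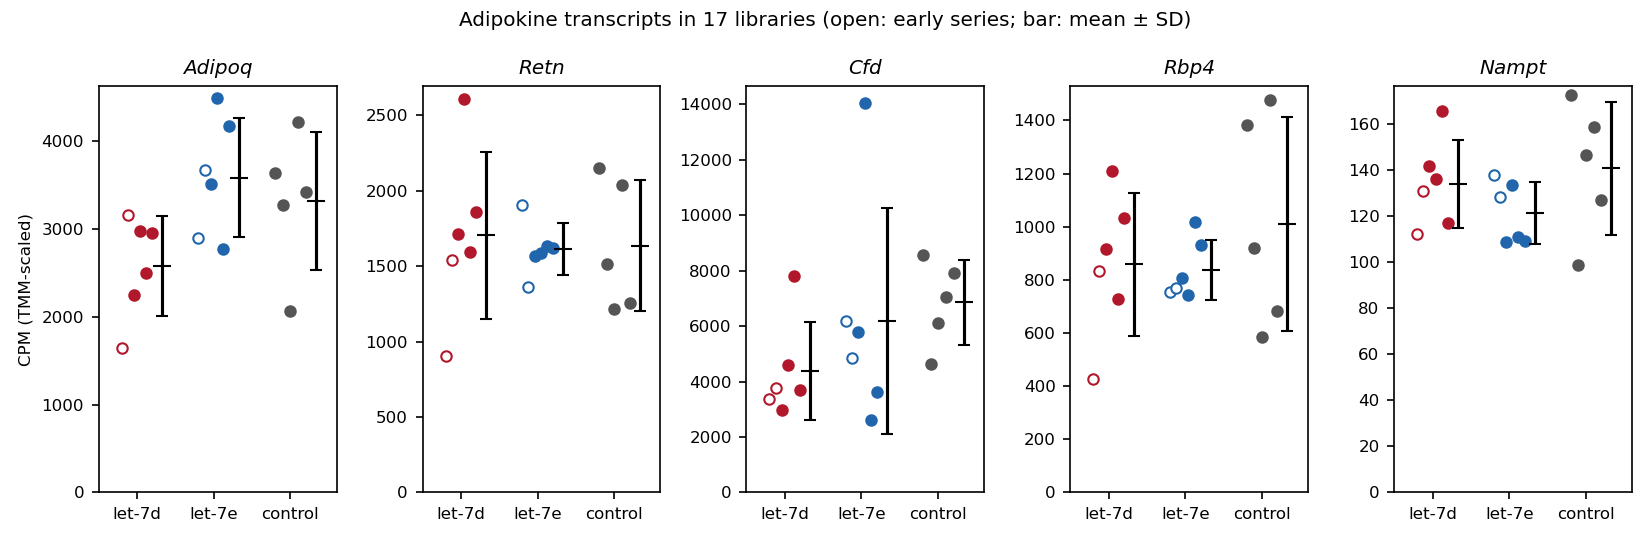
CPM of each adipokine transcript (vertical axis, from 0, own scale per panel) in let-7d, let-7e and control libraries. Each point is a library, open for the early series, and the bar is the mean ± SD of the group; in each panel the 3 groups overlap, and Cfd in let-7e 4 stands alone at 14067 CPM.

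Adipoq (ENSMUSG00000022878.5, plus strand of chromosome 16, 23146536 to 23158028 on GRCm38) encodes adiponectin. It ranged from 1650 to 3159 CPM in let-7d libraries with a median of 2728 CPM, and from 2780 to 4490 CPM in let-7e libraries with a median of 3595 CPM. The control libraries 1, 2, 3, 4 and 6 stood at 3642, 3280, 2071, 4216 and 3421 CPM. The let-7d libraries were the lower ones, let-7d 1 lowest of all, yet 3 of them lay above the lowest let-7e library and 5 above control 3. Group means were 2583 ± 568 CPM with let-7d (SD, n = 6), 3588 ± 678 CPM with let-7e (SD, n = 6) and 3326 ± 787 CPM in controls (SD, n = 5). With let-7e against let-7d the log2 fold change was 0.47 (95% interval 0.08 to 0.87, edgeR unadjusted p = 0.0227, adjusted p = 0.7), which misses the threshold. Without the 4 libraries that stand apart this value was 0.35 (adjusted p = 0.576). Fat cell genes stood on the same side, with 20 of 26 positive with let-7e against let-7d and a median log2 fold change of 0.22, beside -0.01 for all genes, and their part in the Adipoq value was not tested. Adipoq had a log2 fold change of -0.31 with let-7d against control (-0.75 to 0.13, edgeR adjusted p = 0.608) and of 0.16 with let-7e against control (-0.28 to 0.60, adjusted p = 0.82). Both intervals against control held 0, so a difference of either sign within them is not excluded.

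Retn (ENSMUSG00000012705.16, plus strand of chromosome 8, 3655770 to 3660110) encodes resistin. It ranged from 904 to 2610 CPM in let-7d libraries with a median of 1655 CPM, and from 1365 to 1908 CPM in let-7e libraries with a median of 1603 CPM. Controls 1, 2, 3, 4 and 6 stood at 2154, 1518, 1220, 2039 and 1255 CPM. The widest group was let-7d, which held both the lowest library, let-7d 1, and the highest, let-7d 4, and the narrowest was let-7e. The means were 1704 ± 552 CPM with let-7d (SD, n = 6), 1614 ± 174 CPM with let-7e (SD, n = 6) and 1637 ± 437 CPM in controls (SD, n = 5). The log2 fold changes were 0.14 with let-7d against control (-0.32 to 0.59), 0.09 with let-7e against control (-0.38 to 0.56) and -0.05 with let-7e against let-7d (-0.47 to 0.37), with edgeR adjusted p of 0.842, 0.919 and 0.992. The sign of the let-7e value against control turned to -0.18 without the 4 libraries.

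Cfd (ENSMUSG00000061780.6, plus strand of chromosome 10, 79890853 to 79892655) encodes adipsin and was the most variable of the 5. It ranged from 2980 to 7813 CPM in let-7d libraries with a median of 3731 CPM, and from 2621 to 14067 CPM in let-7e libraries with a median of 5317 CPM. Controls 1, 2, 3, 4 and 6 stood at 8571, 4647, 6108, 7060 and 7903 CPM. In let-7d, 5 of 6 libraries lay below every control, and let-7d 5 lay among the controls. In let-7e, let-7e 4 lay above every control and let-7e 5 and 6 below all of them. The means were 4369 ± 1771 CPM with let-7d (SD, n = 6), 6187 ± 4082 CPM with let-7e (SD, n = 6) and 6858 ± 1543 CPM in controls (SD, n = 5). The log2 fold change was -0.55 with let-7d against control (-1.35 to 0.25, edgeR adjusted p = 0.615) and -0.04 with let-7e against control (-0.85 to 0.77, adjusted p = 0.981). With let-7e against let-7d it was 0.51 (-0.22 to 1.24, adjusted p = 0.832), and 0.07 without let-7e 4.

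Rbp4 (ENSMUSG00000024990.13, minus strand of chromosome 19, 38116629 to 38125281) encodes the plasma carrier of retinol. It ranged from 429 to 1210 CPM in let-7d libraries with a median of 876 CPM, and from 741 to 1016 CPM in let-7e libraries with a median of 789 CPM. Controls 1, 2, 3, 4 and 6 stood at 1383, 920, 587, 1477 and 685 CPM. The lowest library was again let-7d 1, controls 1 and 4 were the highest, and the let-7e libraries all lay inside the range of the controls. The means were 858 ± 268 CPM with let-7d (SD, n = 6), 837 ± 112 CPM with let-7e (SD, n = 6) and 1010 ± 403 CPM in controls (SD, n = 5). The log2 fold changes were -0.12 with let-7d against control (-0.66 to 0.41), -0.14 with let-7e against control (-0.69 to 0.41) and -0.01 with let-7e against let-7d (-0.50 to 0.48), with edgeR adjusted p of 0.884, 0.892 and 0.998. The let-7e value against control was -0.49 without the 4 libraries (adjusted p = 0.678). Rbp4 is also a liver transcript, and 12 liver genes summed to 11.6 to 394 CPM in let-7d libraries, 16.1 to 319 CPM in let-7e libraries and 19.5 to 119 CPM in controls. Their part in the Rbp4 values was not tested.

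Nampt (ENSMUSG00000020572.8, plus strand of chromosome 12, 32819545 to 32853349) encodes the NAD salvage enzyme. The long noncoding gene Gdap10 lies within it on the same strand, and how reads were divided between them is not given in the sources used here. It ranged from 112 to 166 CPM in let-7d libraries with a median of 133 CPM, and from 109 to 138 CPM in let-7e libraries with a median of 119 CPM. Controls 1, 2, 3, 4 and 6 stood at 173, 98.5, 147, 159 and 127 CPM. The controls held both the highest and the lowest library, and every let-7d and let-7e library lay between them. The means were 134 ± 19.2 CPM with let-7d (SD, n = 6), 121 ± 13.3 CPM with let-7e (SD, n = 6) and 141 ± 28.9 CPM in controls (SD, n = 5). The log2 fold changes were -0.07 with let-7d against control (-0.38 to 0.23), -0.22 with let-7e against control (-0.52 to 0.09) and -0.14 with let-7e against let-7d (-0.42 to 0.13), with edgeR adjusted p of 0.881, 0.619 and 0.899.

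**Figure D2:**
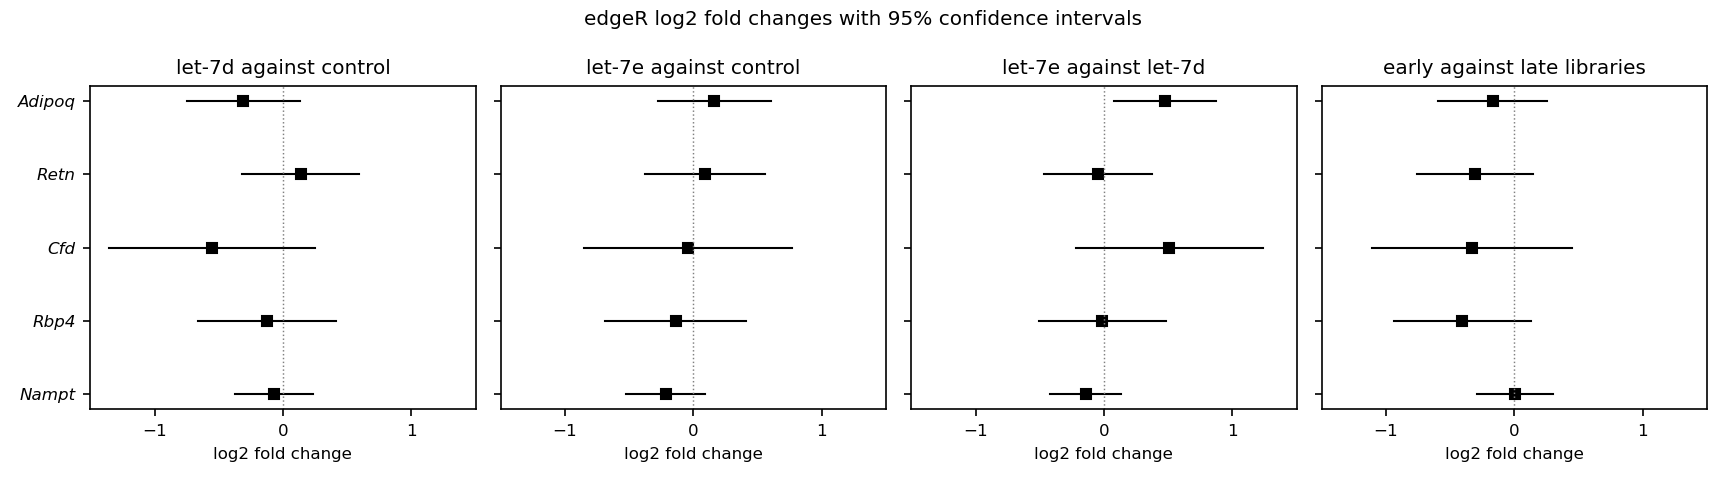
Log2 fold change of each adipokine transcript (horizontal axis) in the 4 comparisons, as squares with 95% intervals from edgeR. All intervals cross 0 except that of Adipoq with let-7e against let-7d, 0.08 to 0.87, whose adjusted p was 0.7; those of Cfd are the widest.

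Early against late libraries asks whether the identifier series moved the adipokines, and 0 of 5 passed, whereas 12.2% of all genes did, 5.46% higher and 6.72% lower in early libraries. The series term is estimated within let-7d and let-7e, which hold both series. Rbp4 averaged 631 ± 287 CPM in early let-7d libraries (SD, n = 2) and 972 ± 202 CPM in late ones (SD, n = 4), and 762 ± 11.8 CPM in early let-7e libraries (SD, n = 2) and 874 ± 123 CPM in late ones (SD, n = 4). The log2 fold change was -0.41 (-0.94 to 0.13, edgeR adjusted p = 0.352). Retn had -0.31 (-0.76 to 0.15, adjusted p = 0.419), Cfd -0.33 (-1.11 to 0.45, adjusted p = 0.644), Adipoq -0.17 (-0.59 to 0.25, adjusted p = 0.666) and Nampt 0.00 (-0.29 to 0.30, adjusted p = 0.991). Without the 4 libraries that stand apart, among them let-7d 1, the values were -0.25 for Rbp4 and -0.12 for Retn (edgeR adjusted p of 0.361 and 0.72). Retn averaged 1223 ± 452 CPM in early let-7d libraries (SD, n = 2) and 1945 ± 456 CPM in late ones (SD, n = 4), against 1637 ± 384 CPM in early let-7e libraries (SD, n = 2) and 1603 ± 29.4 CPM in late ones (SD, n = 4). The difference between those 2 early-late differences was 0.65 on the log2 scale (edgeR interaction, unadjusted p = 0.0752, adjusted p = 0.988). Beside these values, endothelial genes passed lower in early libraries in 6 of 14, fibroblast genes in 4 of 16 and other fat cell genes in 1 of 26, and their part in the adipokine values was not tested.

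The 5 transcripts varied to different degrees. The SD of log2 CPM over the 17 libraries was 0.63 for Cfd, which exceeded that of 94.0% of the 500 genes nearest in mean level, and its highest library was 5.37 times its lowest. Rbp4 had an SD of 0.44, above 82.2% of its neighbours, and a highest library 3.45 times the lowest. Adipoq had 0.38 (above 72.6%) and Retn 0.35 (above 65.2%), with highest libraries 2.72 and 2.89 times the lowest. Nampt varied least, with 0.23 (above 54.2%) and a ratio of 1.75. After the group and series means were taken out, the residual SD of Cfd still exceeded that of 94.8% of its neighbours.

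Retn and Rbp4 went together across libraries. Over 17 libraries their log2 CPM had a Pearson r of 0.87 (permutation p = 3e-05, adjusted over the 10 pairs of adipokines p = 0.0003) and a Spearman rho of 0.79 (permutation p = 0.00036, adjusted p = 0.0036). Both were lowest in let-7d 1 and low in controls 3 and 6, and both were high in let-7d 4 and controls 1 and 4. Without let-7d 1 and let-7d 4, the libraries farthest from the median of Retn, r was 0.81. It was 0.86 within the 13 late libraries (permutation, adjusted p = 0.002) and 0.88 on residuals from the group and series means (adjusted p = 0.0001). Without the 4 libraries that stand apart r was 0.72 over 13 libraries and the call was lost (permutation p = 0.006, adjusted p = 0.0532). Leaving out any single library gave 0.80 to 0.92.

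None of the other 9 pairs passed. The nearest was Adipoq with Rbp4, with r of 0.57 (rho 0.38, permutation p = 0.0162, adjusted p = 0.0812), which fell to 0.15 without let-7d 1 and control 3. Cfd and Nampt had r of 0.52 (rho 0.50, permutation p = 0.0345, adjusted p = 0.115), and 0.56 without let-7e 4 and let-7e 5. On residuals from the group and series means both of these passed, with r of 0.63 (adjusted p = 0.0356) and 0.59 (adjusted p = 0.0457). Adipoq with Retn had 0.46 (rho 0.19, adjusted p = 0.127), or -0.09 without let-7d 1 and control 3, and Adipoq with Cfd had 0.46 (rho 0.46, adjusted p = 0.127), or 0.68 without the 4 libraries (adjusted p = 0.0532). Cfd was close to unrelated to Rbp4 (r 0.01, rho -0.19, adjusted p = 0.987) and Retn (r 0.12, rho 0.04, adjusted p = 0.807), with permutation p throughout.

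**Figure D3:**
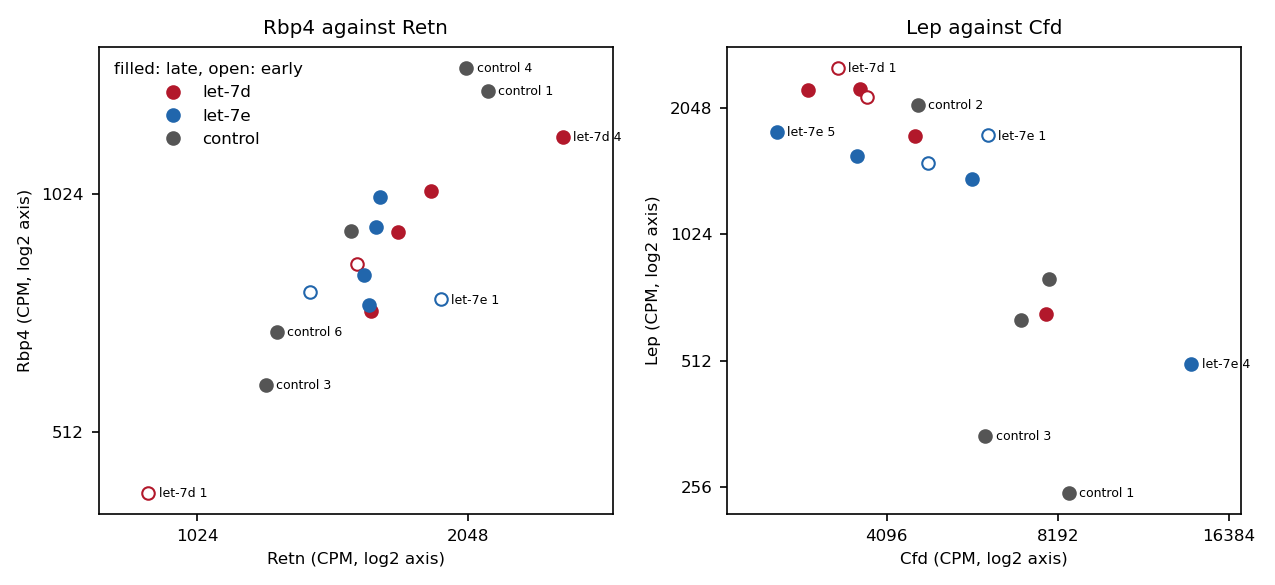
Left, Rbp4 against Retn, and right, Lep against Cfd, in CPM on log2 axes; each point is a library, coloured by group and open for the early series. Retn and Rbp4 are both lowest in let-7d 1 and high in let-7d 4 and controls 1 and 4 (r 0.87), while Lep falls into a lower and an upper set of libraries with a gap between 802 and 1389 CPM.

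The levels of the 5 adipokines were also set beside those of the 26 other fat cell genes, which gives 5 of the 25 relations with lists of cell type genes that were added after the data were seen. Rbp4 had r of 0.89 with the mean log2 CPM of that list (permutation, adjusted p = 0.00025; rho 0.66, adjusted p = 0.0566; 0.77 without let-7d 1 and control 4). Retn had r of 0.84 (permutation, adjusted p = 0.000875; rho 0.69, adjusted p = 0.0566; 0.81 without let-7d 1 and let-7d 4). Adipoq had r of 0.71 (permutation, adjusted p = 0.0135; rho 0.53, adjusted p = 0.262), but 0.39 without let-7d 1 and control 3, so its value rests on those libraries. Cfd had r of 0.24 (rho 0.22, permutation, adjusted p = 0.579) and Nampt 0.38 (rho 0.29, adjusted p = 0.312). Within the late libraries r was 0.87 for Rbp4 (adjusted p = 0.00425), 0.77 for Retn (adjusted p = 0.0314) and 0.58 for Adipoq (adjusted p = 0.323). Without the 4 libraries no relation passed, with r of 0.75 for Rbp4 (adjusted p = 0.122), 0.60 for Retn (adjusted p = 0.192) and 0.46 for Adipoq (adjusted p = 0.326).

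Subtracting the fat cell list from each adipokine restates these relations as a spread. The SD after subtraction follows from r and from the SDs of the adipokine and the list. The SD over libraries was 0.22 for Rbp4 after subtraction against 0.44 before it, and 0.19 for Retn against 0.35. For Adipoq it was 0.27 after and 0.38 before. For Cfd it was 0.64 after and 0.63 before, and for Nampt 0.31 after and 0.23 before. Relative to other fat cell genes the spread of Cfd and Nampt was not smaller, while that of Adipoq, Retn and Rbp4 was. This adds no evidence to the values of r. Relative to the list, Adipoq lay at 1.29 ± 0.17 log2 units in let-7d libraries (SD, n = 6), 1.59 ± 0.29 in let-7e libraries (SD, n = 6) and 1.46 ± 0.29 in controls (SD, n = 5).

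**Figure D4:**
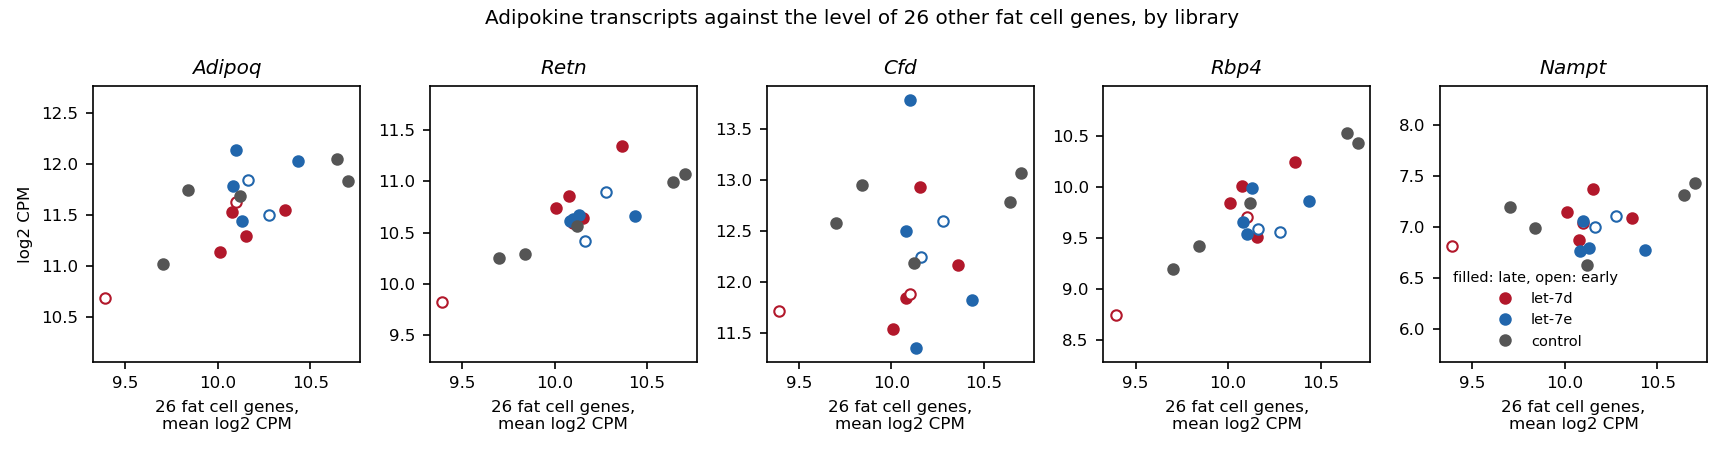
Log2 CPM of each adipokine transcript (vertical axes, all spanning the same range in log2 units) against the mean log2 CPM of 26 other fat cell genes (horizontal axes), by library, coloured by group and open for the early series. Rbp4 and Retn climb with the fat cell genes (r 0.89 and 0.84), Cfd spreads widely at one level of them (r 0.24).

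Leptin (Lep), the satiety hormone of fat cells, was set beside the 5 adipokines as well. Among let-7d libraries Lep ran from 1753 to 2546 CPM, with let-7d 5 apart at 660 CPM. Among let-7e libraries it ran from 1389 to 1798 CPM, with let-7e 4 apart at 504 CPM. Controls 1, 2, 3, 4 and 6 had 248, 2080, 339, 640 and 802 CPM. The 5 libraries highest in Cfd were let-7e 4, controls 1, 4 and 6 and let-7d 5, which are 5 of the 6 libraries with Lep under the gap in the plot of Lep against Cfd. The other, control 3, had 6108 CPM of Cfd, and of the libraries above the gap only let-7e 1, at 6170 CPM, exceeded it. The libraries under the gap thus include every control but control 2. They also include let-7d 5, control 3 and control 6, which are among the 4 libraries that stand apart. The part of group and of other tissues in this pattern was not tested, and no value without those 4 libraries was computed here. Since Lep falls into 2 sets, r was computed within each set and not over both, for 10 relations added after the data were seen. For Cfd it was 0.03 in the 6 libraries of lower Lep (rho -0.09, permutation p = 0.943, adjusted p = 0.943) and -0.53 in the 11 of higher Lep (rho -0.56, permutation p = 0.0985, adjusted p = 0.493), so neither passed. Without the 2 libraries farthest from the median of Cfd it was -0.68 in the lower set and -0.34 in the higher, with no test. In the lower set only let-7d 5 and controls 1, 4 and 6 then remained. On residuals from the group and series means it was -0.52 and -0.55, with no test. Those means were taken over all 17 libraries, so the residuals of one set also depend on the libraries of the other. For Adipoq it was 0.17 in the lower set (rho -0.09, permutation, adjusted p = 0.918) and -0.75 in the higher set (rho -0.74, permutation, adjusted p = 0.0487). The value in the higher set was -0.61 without let-7d 1 and let-7e 6. On residuals from the group and series means it was -0.17. Those means again span both sets, so this value cannot tell whether the relation holds within groups of the higher set. The remaining 6 relations had permutation adjusted p of 0.786 to 0.918. Among them Nampt had r of -0.47 in the lower set (rho -0.49) and 0.07 in the higher (rho 0.22). On residuals, which carry the same limit, Nampt had r of -0.73 in the lower set and -0.75 in the higher, with no test.

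The genes whose levels were most like each adipokine differed between them. They were taken from the 5 of highest Pearson r over 17 libraries among 10907 genes whose mean reached 5 CPM, given as a description. For Adipoq they were Ces1d, a carboxylesterase (r 0.94), Agmo, an alkylglycerol monooxygenase (0.93), Rbms2 (0.91), the chromatin remodelling subunit Smarcc2 (0.88) and Hibch, an enzyme of valine breakdown (0.88). For Retn they included Nfu1, an iron-sulfur cluster protein (0.95), the mitochondrial import protein Timm50 (0.94), the succinate dehydrogenase subunit Sdhc (0.93) and Fnta, a farnesyltransferase subunit (0.93). For Cfd they included Chic2 (0.87), Ccdc59 (0.86), Hsd11b1, which regenerates active glucocorticoid (0.86), and the cytochrome P450 Cyp2f2 (0.84). For Rbp4 they were Parp1, which consumes NAD to mark proteins (0.94), Uros, an enzyme of haem synthesis (0.93), Fundc2 (0.93), Auh, an enzyme of leucine breakdown (0.92), and the mitochondrial ribosome recycling factor Mrrf (0.92). For Nampt they were the noncoding RNA Zfas1 (0.85), Dhrs11 (0.85), Pdss2, an enzyme of ubiquinone synthesis (0.84), Dennd2d (0.80) and the chaperone Dnajb9 (0.80). Rbp4 ranked 63rd among the genes most like Retn, and Retn 66th among those most like Rbp4. Within the 13 late libraries the r of these genes lay between 0.81 and 0.95.

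The promoters of Retn and Rbp4 are shown because these transcripts moved together. They span 250 bases before to 50 after the RefSeq start on GRCm38.p6, 5′ to 3′ on the gene's strand, with motif matches in capitals. Both strands were searched for the TATA box motif written TATAAA, the GC box motif written GGGCGG, the E box motif written CACGTG, the motif of C/EBP factors written TTGCNNAA, and the direct repeat bound by nuclear receptors, by its 13-letter consensus.
Retn, chr8:3655520-3655819, plus strand: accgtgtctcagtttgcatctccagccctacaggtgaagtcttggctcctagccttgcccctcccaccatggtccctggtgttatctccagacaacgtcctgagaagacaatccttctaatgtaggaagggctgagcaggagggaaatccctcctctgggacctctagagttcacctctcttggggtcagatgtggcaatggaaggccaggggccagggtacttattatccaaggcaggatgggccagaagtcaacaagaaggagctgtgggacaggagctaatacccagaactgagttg
Rbp4, second RefSeq start, chr19:38124762-38125061, minus strand: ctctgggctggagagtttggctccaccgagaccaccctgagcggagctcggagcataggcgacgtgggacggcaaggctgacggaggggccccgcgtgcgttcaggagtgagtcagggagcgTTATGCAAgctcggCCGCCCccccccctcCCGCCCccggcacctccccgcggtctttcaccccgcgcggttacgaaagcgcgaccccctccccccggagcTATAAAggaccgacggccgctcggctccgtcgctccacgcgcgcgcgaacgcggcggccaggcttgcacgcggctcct
The 2 promoters shown were unlike in composition, but the contrast in CpG sites and matches depends on the start of Rbp4 chosen. Its first RefSeq start, not printed here, had 40.7% GC, 5 CpG sites and no match. That of Retn had 54.0% GC, 2 CpG sites and no match, and that of Rbp4 had 72.0% GC, 40 CpG sites and 4 matches. The 4 matches were TATAAA at -28, GGGCGG on the minus strand at -114 and -99 and TTGCNNAA on the minus strand at -128. Over 32851 promoters the median was 7 CpG sites, and TATAAA occurred in 13.6%, GGGCGG in 35.7%, TTGCNNAA in 10.8%, CACGTG in 7.15% and the direct repeat in 13 promoters (0.0396%). The other promoters had no match in Adipoq (0 CpG sites), Cfd (2) or the first start of Rbp4 (5), and 5 GGGCGG matches in Nampt (36). A match is a description of letters and not a site of binding.

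Genes of the adiponectin pathway, listed by role, did not pass in the group comparisons: 0 of 13 receptors and signalling genes and 0 of 10 genes of adiponectin assembly. The share of all genes called was 0% in each, so these counts say nothing particular about the pathway. Adipor2, a receptor abundant in liver and fat, averaged 603 ± 132 CPM with let-7d (SD, n = 6), 876 ± 202 CPM with let-7e (SD, n = 6) and 828 ± 220 CPM in controls (SD, n = 5). Its log2 fold change was 0.54 with let-7e against let-7d (SE 0.196, edgeR adjusted p = 0.7) and -0.43 with let-7d against control (SE 0.215, adjusted p = 0.512). Adipor1 averaged 206 ± 22.1 CPM with let-7d, 229 ± 21.8 CPM with let-7e and 237 ± 13.7 CPM in controls (SD, same n). Cdh13, a cell surface protein that binds adiponectin multimers, had a log2 fold change of 0.29 with let-7e against let-7d (edgeR adjusted p = 0.7). Of the 13 genes, 12 had a negative log2 fold change with let-7d against control, with a median of -0.08 beside -0.04 for all genes, and 7 with let-7e against control, with a median of -0.03. In early against late libraries Ppara, a regulator of fatty acid oxidation, rose (log2 fold change 0.85, edgeR adjusted p = 0.042), and 4 of 10 assembly genes fell, beside 6.72% of all genes called lower, among them Plod1, which hydroxylates lysines (-0.60, adjusted p = 0.00523), and Syvn1, a ubiquitin ligase (-0.65, adjusted p = 0.00517).

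Relatives and partners of resistin, Rbp4 and adipsin did not pass in the group comparisons either, where 0% of all genes passed. Their counts of 0 there are thus not particular to them. Of the resistin family only Retnla was measured, a product of macrophages in mice, at 333 ± 97.9 CPM with let-7d (SD, n = 6), 279 ± 83.6 CPM with let-7e (SD, n = 6) and 258 ± 143 CPM in controls (SD, n = 5). Cap1, a resistin-binding protein known from human monocytes, stood at 186 ± 14.0, 185 ± 14.8 and 187 ± 21.5 CPM in let-7d, let-7e and control libraries (SD, n = 6, 6 and 5). Of 22 measured genes of retinoid transport and metabolism 0 passed, and the smallest p was that of Rdh11, a retinol dehydrogenase. Its log2 fold changes were -1.08 with let-7d against control (SE 0.32, edgeR adjusted p = 0.456) and -1.32 with let-7e against control (SE 0.321, adjusted p = 0.356). Rdh11 averaged 17.9 ± 3.93 CPM with let-7d, 15.1 ± 2.93 CPM with let-7e and 34.8 ± 23.7 CPM in controls (SD, same n). The controls ran from 14.05 to 75.85 CPM and overlapped both other groups. Stra6, the retinol uptake receptor for Rbp4, was close to the floor at 0.473 ± 0.319 CPM with let-7d, 0.382 ± 0.409 CPM with let-7e and 1.53 ± 1.92 CPM in controls (SD, same n). In early against late libraries 3 of 22 passed, near the 12.2% of all genes, all lower, among them the nuclear receptor Rxrb (-0.56, edgeR adjusted p = 0.000358). Of 20 complement genes 0 passed in any comparison, including C3, the central component, at 714 ± 260 CPM with let-7d, 733 ± 285 CPM with let-7e and 905 ± 307 CPM in controls (SD, same n), and Cfb, the substrate of adipsin, at 21.9 ± 1.76, 24.0 ± 3.05 and 17.7 ± 7.02 CPM.

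Of the 27 measured genes of NAD metabolism, to which Nampt belongs by role, 0 passed in the group comparisons, beside 0% of all genes. Sirt1, an NAD-dependent deacetylase, had the smallest p with let-7d against control, with 16.8 ± 2.63 CPM in let-7d libraries (SD, n = 6), 19.9 ± 1.84 CPM in let-7e libraries (SD, n = 6) and 19.9 ± 1.58 CPM in controls (SD, n = 5), a log2 fold change of -0.35 (SE 0.086, edgeR unadjusted p = 0.000956, adjusted p = 0.456). Nnmt, which methylates nicotinamide, averaged 204 ± 46.8 CPM with let-7d, 208 ± 40.1 CPM with let-7e and 148 ± 35.3 CPM in controls, with edgeR adjusted p of 0.473 with let-7d against control and 0.417 with let-7e against control. In early against late libraries 2 of 27 passed, beside 12.2% of all genes, the NAD hydrolase Cd38 (0.59, edgeR adjusted p = 0.00322) and Sirt1 (0.29, adjusted p = 0.0274), both higher, while Nampt itself had 0.00. The medians of the NAD list were -0.10 with let-7d against control, -0.10 with let-7e against control and 0.01 with let-7e against let-7d, beside -0.04, -0.04 and -0.01 for all genes.

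Regulators of fat cell genes and other secreted products of fat completed the lists. The group comparisons called 0% of all genes, so a count of 0 there is not particular to a list. Of 22 adipogenic regulators 0 passed in the group comparisons. Pparg averaged 212 ± 42.9 CPM with let-7d, 206 ± 20.1 CPM with let-7e and 188 ± 44.9 CPM in controls, and Cebpa, a partner of Pparg in fat cell differentiation, 1354 ± 409, 1281 ± 215 and 1355 ± 371 CPM (SD, n = 6, 6 and 5). In early against late libraries 5 of 22 passed, beside 12.2% of all genes, with the corepressor Ncor1 among the higher (0.58, edgeR adjusted p = 0.000156) and Cebpa among the lower (-0.62, adjusted p = 0.0386). Of 34 other adipokines measured 0 passed in the group comparisons, and their median log2 fold change was 0.17 with let-7d against control and 0.24 with let-7e against control, beside -0.04 for all genes in both. Cxcl12, a chemokine, had -0.49 with let-7d against control (SE 0.111, edgeR adjusted p = 0.456) and fell in early against late libraries (-0.38, adjusted p = 0.0306). Haptoglobin (Hp) averaged 1845 ± 363 CPM with let-7d, 2218 ± 667 CPM with let-7e and 1371 ± 615 CPM in controls, with a log2 fold change of 0.72 with let-7e against control (SE 0.282, edgeR adjusted p = 0.406). Of 8 measured relatives of adiponectin in the C1q and TNF family 0 passed in any comparison, and C1qtnf6 had 0.46 with let-7d against control (edgeR adjusted p = 0.473) and 0.48 with let-7e against control (adjusted p = 0.417).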

How the data were processed

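The deposited table of whole-number read counts per Ensembl gene was used. Per the submitters' processing notes reads were aligned with STAR to GRCm38.p6; the tool that counted reads and the threshold of the filter on CPM, which the name of the deposited file mentions, are not given in the sources used here. A deposited RPKM table was not used. Symbols came from GENCODE M21 (GRCm38), matched by gene identifier without its version, for 16438 genes and not for 14, and sequences from RefSeq (GRCm38.p6).

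Counts were analysed in R 4.3.3 with edgeR 4.0.16: TMM scaling, filterByExpr (0 genes removed), and a quasi-likelihood fit of 17 libraries on group and identifier series (4 early, 13 late), with a common biological coefficient of variation of 0.36. All p-values are two-sided, and Benjamini-Hochberg adjustment ran over the 16452 genes of each comparison, with a threshold of 0.05. Log2 CPM has a prior count of 2. Fold changes account for the series, group means do not. Correlations used 100000 permutations (Python 3.11.15, numpy 2.4.6, scipy 1.17.1). Libraries held 12717365 to 28972306 counts, and counting error is small beside their spread.

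The 5 adipokines and the lists were chosen with earlier results of these data known. Named besides the members are the 5 genes most like each and, per list, genes that passed or had the smallest p, plus a few fixed by role; some genes that the rule gives are not reported here. Libraries with the same replicate number did not regularly deviate together from their group means (correlations of -0.376 to 0.481), so numbers were not taken to pair them. The highest values were 0.481 for let-7d 2 with let-7e 2 and 0.454 for let-7d 1 with let-7e 1. Both of these pairs are of the early series, which was not taken out here. No library was a duplicate: the most alike within a group, let-7d 3 and let-7d 6, differed at a chi-square of 14.64 per degree of freedom. In simulated data with 100 genes changed 2-fold and 100 changed 4-fold, recovery was 61% and 87% (let-7d against control), 61% and 84% (let-7e against control), 68% and 86% (let-7e against let-7d), and 68% and 90% (early against late), with 7, 1, 7 and 7 false calls. These shares are over all planted genes and do not give the recovery of any one adipokine. With let-7d against control the SE of the 5 ran from 0.143 for Nampt to 0.377 for Cfd. Alternatives were DESeq2 1.42.0 (size factors and Wald test), limma 3.58.1 (voom with quality weights), other filters, a replicate block, no series term, fewer libraries and each library left out.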

Additional observations from a re-analysis of the deposited data

Results flagged for a closer look

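For Cfd the library let-7d 5, at 7813 CPM, stood far above the other 5 let-7d libraries, which lay between 2980 and 4602 CPM. Likewise let-7e 4, at 14070 CPM of Cfd, stood far above the other 5 let-7e libraries, which lay between 2621 and 6170 CPM. In CPM, the gap to the nearest library of the group, divided by the range of the group, was 0.665 for let-7d 5 and 0.69 for let-7e 4. Both lie above Dixon's critical value of 0.625 for 6 libraries. The same rule was not applied to log2 CPM, the scale of the correlations, where both gaps are smaller parts of the range. There let-7d 5 stood at 12.93, with let-7d 4 next at 12.17 and let-7d 3 lowest at 11.54. Likewise let-7e 4 stood at 13.78, with let-7e 1 next at 12.59 and let-7e 5 lowest at 11.36. The flags thus hold for CPM only. Such a gap was looked for in 15 groups (5 adipokines in 3 groups), and chance flags about 1 in 20. The let-7d 5 library is also one of the 4 that stand apart, with epithelial genes summing to 353 CPM, and let-7e 4 held Alb, a liver transcript, at 185 CPM. Alb was as high in let-7d 3, at 195 CPM, which had the lowest Cfd of its group. Their part in the level of Cfd was not tested.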

How the results depend on the processing

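No adipokine passed the threshold in any comparison under any alternative run, and 0 of 5 was the count throughout. Log2 fold changes near 0 changed sign. With limma-voom these were Retn with let-7d against control (-0.04), Adipoq (-0.06) and Retn (-0.17) with let-7e against control, and Adipoq in early against late libraries (0.00). Without control 3, control 6, let-7d 1 and let-7d 5 they were Adipoq (-0.02) and Retn (-0.18) with let-7e against control. Retn with let-7e against control had -0.02 with no series term, -0.03 with late libraries only and -0.01 with only the 2 groups compared, where Nampt had 0.01 with let-7d against control. In early against late libraries, Nampt had -0.19 within let-7d only and Retn 0.04 within let-7e only. The cause was not tested.

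With the replicate number as a block Rbp4 changed sign, to 0.12 with let-7d against control, 0.14 with let-7e against control and 0.02 with let-7e against let-7d. In that run 0 of 5 adipokines passed, and the numbers were not taken to pair the libraries.

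With each library left out in turn, the log2 fold changes with let-7d against control ranged from -0.42 to -0.19 for Adipoq, -0.01 to 0.26 for Retn, -0.83 to -0.42 for Cfd, -0.25 to 0.07 for Rbp4 and -0.18 to 0.02 for Nampt. With let-7e against control they ranged from 0.05 to 0.28, 0.02 to 0.22, -0.56 to 0.17, -0.26 to 0.06 and -0.32 to -0.13 in the same order. With let-7e against let-7d they ranged from 0.38 to 0.61, -0.18 to 0.08, 0.07 to 0.73, -0.14 to 0.08 and -0.20 to -0.07. In early against late libraries they ranged from -0.37 to -0.02, -0.48 to -0.10, -0.46 to 0.02, -0.53 to -0.21 and -0.05 to 0.09. Against control the sign turned for Rbp4 without control 1 or control 4 (both groups), with let-7d for Retn without let-7d 4 and Nampt without control 1, and with let-7e for Cfd without let-7e 3, 5 or 6 or control 1 or 6. With let-7e against let-7d it turned for Retn without let-7d 4 and for Rbp4 without let-7e 3 or 4 or let-7d 2, 4 or 6. It also turned in early against late libraries for Cfd without let-7e 4 and for Nampt, at 0.00, without let-7d 6 or let-7e 1, 2, 3, 5 or 6.

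Of the pairs, Retn with Rbp4 lost its call without the 4 libraries (r 0.72). Adipoq with Rbp4 (0.63) and Cfd with Nampt (0.59) gained one on residuals. Signs turned for Adipoq with Retn without the 4 libraries (-0.14), Adipoq with Nampt in late libraries (-0.16) and with size factors (-0.01), Retn with Cfd in late libraries (-0.11), and Cfd with Rbp4 in late libraries (-0.20) and on residuals (-0.14). Another prior count changed no call.

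Limits are the 5 controls, all of the late series, and the spread between libraries, not depth: the interval of Cfd spans more than a doubling.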
